A study of Mus musculus with 24 samples.

Results

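The genes of the major histocompatibility complex (MHC, H2 in mice) and of antigen presentation were followed in pancreatic islets of 2 mouse strains on 3 diets. They were taken as the array probes whose gene name begins with H2- or is one of Tap1, Tap2, Tapbp, Psmb8, Psmb9, B2m, Cd74, Ciita and Nlrc5. This gave 50 gene names of 34797 on the array, measured by 66 of its 55681 distinct probes. The tests took in a probe only if its signal stood well above background in 4 or more mice, which kept 50 of the probes, under 42 names, among 32770 probes of the whole array. A further 12 probes were not well above background on any array, among them those of H2-M1, H2-M10.1, H2-M10.2, H2-M10.3 and H2-M5. The probes nearest the limit were H2-Eb2, measured on 5 arrays and kept, and the second H2-T24 probe, measured on 2 arrays and not kept. Each probe was kept apart from other probes of its gene.

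MHC class I molecules show peptides made inside the cell to CD8 T cells and consist of a polymorphic heavy chain and the light chain beta-2 microglobulin. MHC class II molecules pair an alpha with a beta chain and show peptides taken up from outside to CD4 T cells, chiefly on B cells, macrophages and dendritic cells. Islets hold resident macrophages, while the endocrine cells themselves make class I molecules. BL6 mice carry the H2b haplotype and BLKS mice the H2d haplotype, so that the strains differ in the sequence and number of their H2 genes.

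Islets came from male C57BLKs/J (BLKS) and C57BL6/J (BL6) mice that were 8 weeks old when the diets began. In each strain, 4 mice received a high-fat diet (HFD, 42% of kcal from fat) with the PPAR-gamma agonist pioglitazone at 140 mg per kg diet, 4 the HFD alone, and 4 chow with 18% of kcal from fat. The sample labels give 12 weeks on the diets and the design text of the series gives 16 weeks. Each of the 24 mice was measured on 1 single-colour array, so replicates are separate animals, and their number limits the precision.

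Values are the log2 processed intensity of a probe minus the 75th percentile of its array, which ranged from 245.0 to 458.7 intensity units. The islet endocrine list, 10 of 10 genes measured, had a mean log2 value between 6.50 and 7.32 on every array. The strain labels were checked with Nnt, which lacks exons in C57BL6/J, and all BLKS arrays (lowest 3.30) lay above all BL6 arrays (highest 2.52). The arrays lay on 4 slides. Slide 3 held BLKS mice on HFD with pioglitazone and on HFD, and slide 1 held BL6 mice on HFD and on chow. Only slides 2 and 4 held both strains, as BLKS mice on chow beside BL6 mice on HFD with pioglitazone. For a strain comparison within any 1 diet, slide and group therefore cannot be told apart. The same holds for HFD against chow in BLKS and for pioglitazone against HFD in BL6. It also holds for the strain comparison averaged over the diets and for the strain differences in the response to diet.

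A list of 20 T and B cell genes, 17 of them measured, set 8 arrays apart with a mean log2 value above -2. These were BLKS mouse 1 on HFD with pioglitazone, mouse 3 on HFD and mice 2 and 4 on chow, and BL6 mice 2 and 3 on HFD with pioglitazone, mouse 4 on HFD and mouse 3 on chow. The highest values were 1.26 in BLKS (mouse 3 on HFD) and 2.20 in BL6 (mouse 3 on HFD with pioglitazone). Macrophage markers, 11 of 11 measured, were lower in BLKS for 9 genes and higher for none, while 35% of all kept probes were lower. Cd68 and Lyz2 did not pass. Mrc1 and Fcgr1 were detected in no BLKS mouse, so their calls set signal against background. Itgam was the brightest gene of the list in every group and weighs most in the sum. Their summed level, on a linear scale relative to the 75th percentile, was 33.6 to 50.7, 37.7 to 51.1 and 36.7 to 52.3 in BLKS on HFD with pioglitazone, HFD and chow, against 61.8 to 93.7, 52.2 to 79.8 and 58.5 to 69.2 in BL6 on the same diets. Fewer cells of a type and less RNA per cell cannot be told apart in whole islets.

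The probes that the strain comparison turned on are shown with their place in the mm9 build, as given in the files. The H2-Ea-ps probe (chr17:34481469-34481528, minus strand) and the H2-Aa probe (chr17:34421285-34421344, minus strand) target both alpha chains of the class II pairs I-E and I-A. The second H2-K1 probe (chr17:34133984-34134043, minus strand) and the H2-T23 probe (chr17:36167338-36167574, minus strand, a span longer than the probe) share a run of 29 bases, marked in capitals, so their signals may not be separate. The position of the probes within the gene models was not determined here.
H2-Ea-ps probe: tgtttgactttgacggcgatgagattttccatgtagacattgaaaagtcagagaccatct
H2-Aa probe: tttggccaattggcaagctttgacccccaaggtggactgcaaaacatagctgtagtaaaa
H2-K1 probe 2: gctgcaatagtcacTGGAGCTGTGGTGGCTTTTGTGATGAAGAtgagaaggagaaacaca
H2-T23 probe: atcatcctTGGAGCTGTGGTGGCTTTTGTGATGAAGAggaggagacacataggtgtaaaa

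Averaged over the diets, BLKS and BL6 islets differed most in single H2 genes that were measured in one strain only, and in a run of class I heavy chain probes that were higher in BLKS. Of the 50 probes, 32 passed an adjusted p of 0.05 in limma (64%), 22 higher and 10 lower in BLKS. This share has to be read against the array as a whole, on which 65.2% of all kept probes passed (30.2% higher and 35% lower). A call by itself was thus as common among all probes as among the antigen presentation probes. Their differences were larger in size, with a median of 0.68 on the log2 scale against 0.37 over all probes. A called difference of over 2-fold was seen for 14 of 50 probes (28%) and for 16.2% of all probes. The 14 include H2-Ea-ps, H2-Q1, H2-T18 probe 2, H2-M9 probe 2, H2-M2 probe 1, H2-Q10 probe 2 and H2-Ob probe 2. These were not well above background in every mouse, so their sizes rest in part on background signal. The median size of the 50 probes takes them in as well. The 12 BLKS arrays and the 12 BL6 arrays did not overlap for 8 probes (16%) and for 19.6% of all probes. No test was made of whether the list differs from the rest of the array.

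**Figure D1:**
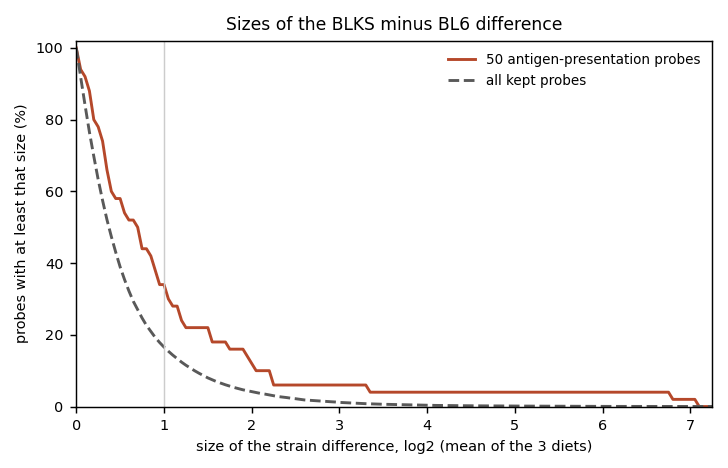
Share of probes (y axis, %) whose BLKS minus BL6 difference, averaged over the diets, reached at least the size on the x axis (log2), for the 50 antigen presentation probes (solid) and all kept probes (dashed). At 1 on the x axis, marked by the grey line, the solid curve lies above the dashed one. Both curves take in probes that were at background in part of the mice.

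H2-Ea-ps, the name on the array for the gene of the I-E alpha chain, had log2 values of -0.63 at the lowest, 0.14 at the median and 2.13 at the highest in BLKS, against -6.81, -6.57 and -5.94 in BL6. The probe was detected, that is well above background, in 12 of 12 BLKS mice and in 0 of 12 BL6 mice. It was at least 101-fold higher in BLKS (log2 difference of the means 6.78 ± 0.25 SE, adjusted p = 3.24e-15). As all BL6 values are background, the SE and p set the signal of the I-E alpha chain against background. Mice of the H2b haplotype are known not to make this chain. Its partner, the I-E beta chain H2-Eb1, was measured on every array of both strains and did not pass (difference -0.01 ± 0.27, adjusted p = 0.983), with medians of 5.31 in BLKS and 5.34 in BL6.

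H2-Q1, a nonclassical class I heavy chain gene of the Q region (probe at chr17:35461859-35461918, plus strand), showed the opposite pattern. Its log2 values were -6.73, -5.21 and -4.79 in BLKS (lowest, median, highest) and 1.10, 1.69 and 1.80 in BL6. No BLKS array and all 12 BL6 arrays were well above background, and the probe was at least 136-fold lower in BLKS (difference -7.09 ± 0.20, adjusted p = 5.54e-17). The second H2-T18 probe was detected in 10 of 12 BLKS mice and in 0 of 12 BL6 mice. It was at least 4.1-fold higher in BLKS, with an adjusted p of 2.53e-08. H2-T18 probe 1, which shares 34 bases with it, was well above background on no array. H2-Q1 and H2-T18 probe 2, like H2-Ea-ps, entered the tests only through the strain that detected them. Their p values set signal against background, and all of them are among the called probes counted above.

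A pair of M region probes of class I genes were measured mainly in BL6. H2-M9 probe 2 was detected in 1 BLKS mouse and 11 BL6 mice, and its strains did not overlap (BLKS highest -4.33, BL6 lowest -4.25, difference -2.22 ± 0.34, adjusted p = 7.34e-06). H2-M2 probe 1 was detected in 4 BLKS mice and 12 BL6 mice (difference -3.34 ± 0.74, adjusted p = 4.99e-04). The 4 BLKS arrays that measured it, with values of -2.58 (mouse 1 on HFD with pioglitazone), -0.90 (mouse 3 on HFD), -3.00 and -3.75 (mice 2 and 4 on chow), are the 4 BLKS arrays of high T and B cell markers. The part of lymphoid cells in this was not tested. H2-M2 probe 2 was measured on all arrays and differed by less, -0.39 ± 0.08 (adjusted p = 2.00e-04).

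**Figure D2:**
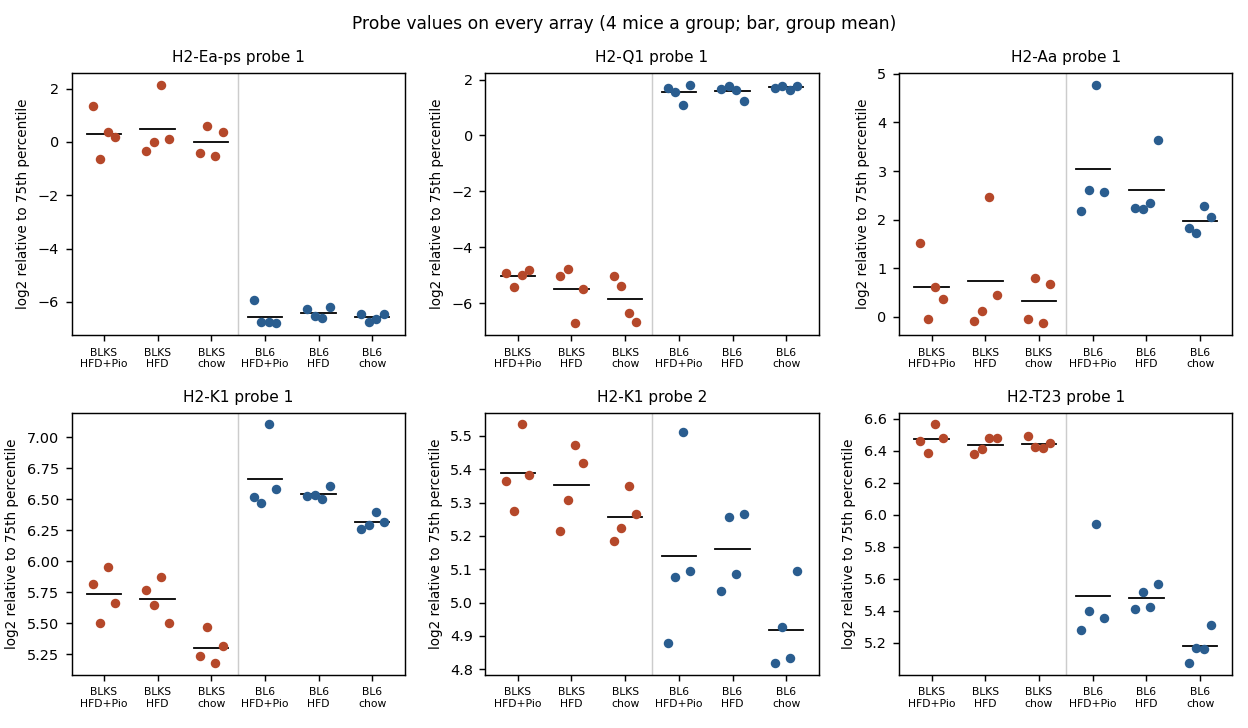
Log2 value relative to the array's 75th percentile (y axis) for 6 probes on each of the 24 arrays, by strain and diet (x axis); points are mice and bars are means of 4 mice. H2-Ea-ps is high on all BLKS arrays and H2-Q1 on all BL6 arrays, and the probes of H2-K1 differ in direction.

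The classical class I heavy chains gave a direction that depended on the probe. H2-D1 was higher in BLKS, with values of 5.80, 6.16 and 6.51 (lowest, median, highest) against 5.22, 5.51 and 6.29 in BL6 (difference 0.65 ± 0.08, adjusted p = 6.62e-07), and the strains overlapped. H2-K1 probe 1 (chr17:34133055-34133114, minus strand) lay between 5.18 and 5.96 in BLKS and between 6.26 and 7.10 in BL6. The strains did not overlap on this probe, which was lower in BLKS (-0.93 ± 0.07, adjusted p = 2.86e-10). H2-K1 probe 2 was higher in BLKS (0.26 ± 0.06, adjusted p = 0.00113), with values of 5.19 to 5.53 in BLKS and 4.82 to 5.51 in BL6. A base under a probe that differs between the haplotypes and a difference in RNA level cannot be told apart from 1 probe, here or for any other H2 gene. Both probes of H2-K2, annotated as a class I pseudogene, were higher in BLKS by 1.19 ± 0.08 and 1.02 ± 0.09.

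Nonclassical class I genes made up 21 of the kept probes, and 13 were higher and 6 lower in BLKS. H2-T23, which encodes Qa-1, the ligand of inhibitory and activating receptors on natural killer cells, lay between 6.38 and 6.56 in BLKS and between 5.08 and 5.95 in BL6. Its strains did not overlap (difference 1.07 ± 0.06, adjusted p = 2.60e-12). H2-Bl was higher in BLKS by 1.23 ± 0.10, also without overlap. In the Q region, H2-Q8 (1.54 ± 0.41), both H2-Q2 probes (0.90 ± 0.10 and 0.75 ± 0.08), H2-Q6 (0.84 ± 0.08) and H2-Q5 (0.70 ± 0.09) were higher. The same held for the probes of H2-Q10, a secreted class I molecule made chiefly by the liver (0.72 ± 0.10 and 1.02 ± 0.27), and for H2-Q7, which encodes Qa-2 (0.34 ± 0.09). H2-Q10 probe 2 was detected in 10 BLKS and 2 BL6 mice, so its difference is largely one from background signal. H2-M11 (0.90 ± 0.11) and H2-M3, which presents N-formylated peptides (0.40 ± 0.05), were higher too. H2-T10, a ligand of gamma delta T cells, was lower by 0.90 ± 0.11 and H2-T9 by 0.54 ± 0.09 on the log2 scale. H2-Q4 (-0.17 ± 0.10) and H2-T24 (-0.31 ± 0.14) did not pass, with adjusted p of 0.150 and 0.0554. H2-Q4 passed without BLKS chow mouse 1 (-0.23), and H2-T24 passed without BL6 chow mouse 2, HFD mouse 2, or HFD with pioglitazone mouse 2 or 4. H2-K2 probe 2 shares 28 bases with the H2-Q7 probe, so these genes may share signal as well. Whether class I probes, those of H2-K2 among them, also measured RNA of other class I genes was not tested. The 13 higher probes are therefore not shown to be separate differences.

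**Figure D3:**
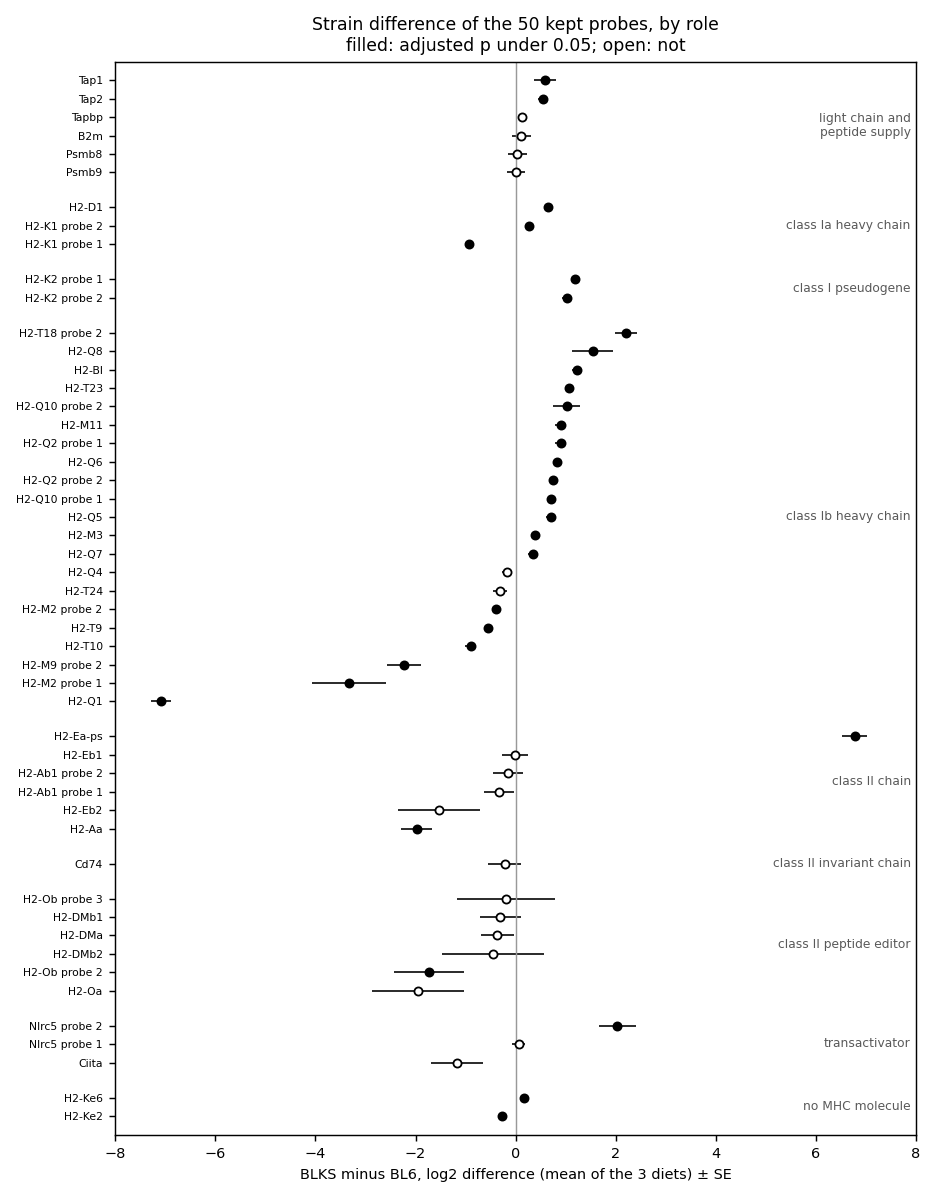
BLKS minus BL6 log2 difference, averaged over the diets, with its SE (x axis) for each of the 50 kept probes (y axis), grouped by role; filled points passed an adjusted p of 0.05. H2-Ea-ps (6.78) and H2-Q1 (-7.09) stand at the ends, and 13 of the 21 nonclassical class I probes are higher in BLKS.

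Of the class I light chain and peptide supply genes, only the transporter subunits passed, both higher in BLKS. Tap2 had values of 3.97, 4.37 and 4.59 in BLKS against 3.52, 3.65 and 4.42 in BL6 (difference 0.54 ± 0.09, adjusted p = 1.98e-05). Tap1 had -0.78, -0.61 and -0.09 in BLKS against -2.06, -1.29 and 0.87 in BL6 (0.59 ± 0.22, adjusted p = 0.0230). A single BL6 array, mouse 3 on HFD with pioglitazone, gave the BL6 maximum of both. Tapbp, which encodes the loading chaperone tapasin, differed by 0.12 ± 0.05 (adjusted p = 0.0505), and it passed when BLKS mouse 1 or 4 on HFD with pioglitazone, BLKS mouse 3 on HFD, BLKS mouse 2 or 4 on chow, or BL6 mouse 2 on HFD was left out. The light chain B2m (0.12 ± 0.19) and the immunoproteasome subunits Psmb8 (0.04 ± 0.20) and Psmb9 (0.01 ± 0.18) did not pass.

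Among class II chains, H2-Aa, the I-A alpha chain, was lower in BLKS. Its values were -0.14, 0.40 and 2.48 in BLKS and 1.73, 2.25 and 4.77 in BL6 (difference -1.98 ± 0.32, 3.94-fold lower, adjusted p = 1.39e-05). The strains overlapped only through BLKS mouse 3 on HFD. Both probes of H2-Ab1, the I-A beta chain that pairs with it, did not pass (-0.33 ± 0.30 and -0.16 ± 0.30), with medians of 4.87 and 4.96 in BLKS and 5.22 and 5.15 in BL6. These probes share 41 bases and are not separate measurements. H2-Eb2, a further beta chain, was detected in 1 BLKS mouse and 4 BL6 mice and did not pass (-1.53 ± 0.82, adjusted p = 0.110). It passed when BLKS mouse 3 on HFD, the only BLKS mouse that detected it, or BL6 mouse 4 on HFD with pioglitazone was left out.

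The class II accessory genes showed wide scatter within each strain and few calls. The invariant chain Cd74, which fills the class II groove during transport, differed by -0.22 ± 0.33. The peptide editor DM differed by -0.37 ± 0.33 (H2-DMa), -0.30 ± 0.41 (H2-DMb1) and -0.45 ± 1.02 (H2-DMb2), and none of these passed. Of DO, which restrains DM in B cells, H2-Oa was detected in 6 BLKS and 12 BL6 mice (-1.95 ± 0.91, adjusted p = 0.0675). It passed without BLKS mouse 1 on HFD with pioglitazone, BLKS mouse 3 on HFD, BLKS mouse 2 on chow or BL6 mouse 4 on HFD with pioglitazone. H2-Ob probe 2 was lower in BLKS (-1.73 ± 0.71, adjusted p = 0.0372), while H2-Ob probe 3 differed by -0.19 ± 0.99. The H2-Ob probe 2 call was lost in 11 of 24 fits that left out 1 array. These arrays were BLKS mice 2 and 4 on HFD with pioglitazone, mice 1, 2 and 4 on HFD and mice 3 and 4 on chow, and BL6 mice 2 and 3 on HFD with pioglitazone, mouse 4 on HFD and mouse 3 on chow.

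The highest class II values lay on arrays of high T and B cell markers. H2-Ab1 probe 1 had 6.08, 4.43, 5.19 and 4.97 in BLKS mice 1 to 4 on HFD with pioglitazone, 4.53, 4.54, 6.79 and 4.77 on HFD, and 4.68, 5.50, 4.24 and 5.17 on chow. In BL6 it had 5.21, 5.54, 7.42 and 5.34 on HFD with pioglitazone, 5.25, 5.13, 5.18 and 6.37 on HFD, and 4.70, 4.59, 5.24 and 4.86 on chow. The highest mouse in each group was one of the 8 arrays of high T and B cell markers. H2-Oa varied far more, from -6.80 to 0.25 in BLKS and from -4.33 to 2.09 in BL6, with its highest value in each group again on such an array. B cell markers, 9 of 10 measured, had a summed linear level of 1.89 to 14.3, 1.92 to 54.5 and 2.18 to 10.3 in BLKS on HFD with pioglitazone, HFD and chow, and of 1.385 to 76.9, 1.20 to 38.7 and 1.345 to 14.1 in BL6. Of its 9 measured genes, 5 were above background on all 24 arrays, while the defining B cell gene Ms4a1 was so on 1 or 2 of the 4 arrays of each group and Pax5 was not kept. The dendritic cell list, 6 of 7 genes measured, was highest on the same mice as H2-Ab1, with mean log2 values of -1.29, -0.94 and -1.78 in BLKS on HFD with pioglitazone, HFD and chow, and of -0.19, -1.48 and -3.26 in BL6. The macrophage list was also highest on the mouse highest for H2-Ab1 in BLKS on HFD with pioglitazone (0.43) and on HFD (0.15). In BL6 it was so on HFD with pioglitazone (1.94), HFD (1.10) and chow (0.37). In BLKS on chow it was highest on mouse 4 (0.13), against -0.03 on mouse 2. The part of lymphoid cells, dendritic cells and macrophages in the class II values was not tested.

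Without these 8 arrays, an alternative chosen after the data were seen, 37 of the 50 probes passed between the strains (24 higher, 13 lower), against 61.1% of all probes. H2-Aa was again lower in BLKS, and H2-Oa (-2.19, adjusted p = 3.32e-04) and H2-Ab1 probe 1 (-0.41, adjusted p = 0.00555) then passed as lower, and Psmb8 (0.29, adjusted p = 0.0108) and Tapbp (0.18, adjusted p = 0.0314) as higher. H2-Oa lay between -6.80 and -3.71 on the BLKS arrays that stayed, so its difference there is largely one from background signal. H2-Eb2 was not well above background on any of the 16 arrays that stayed, so its call there compares background signals. Only mice 1 and 3 of BLKS on chow and mice 1 and 4 of BL6 on HFD with pioglitazone stayed in their groups. With the mean of the T and B cell list as a covariate on all arrays, 38 of the 50 probes passed (23 higher, 15 lower), against 68.0% of all probes.

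**Figure D4:**
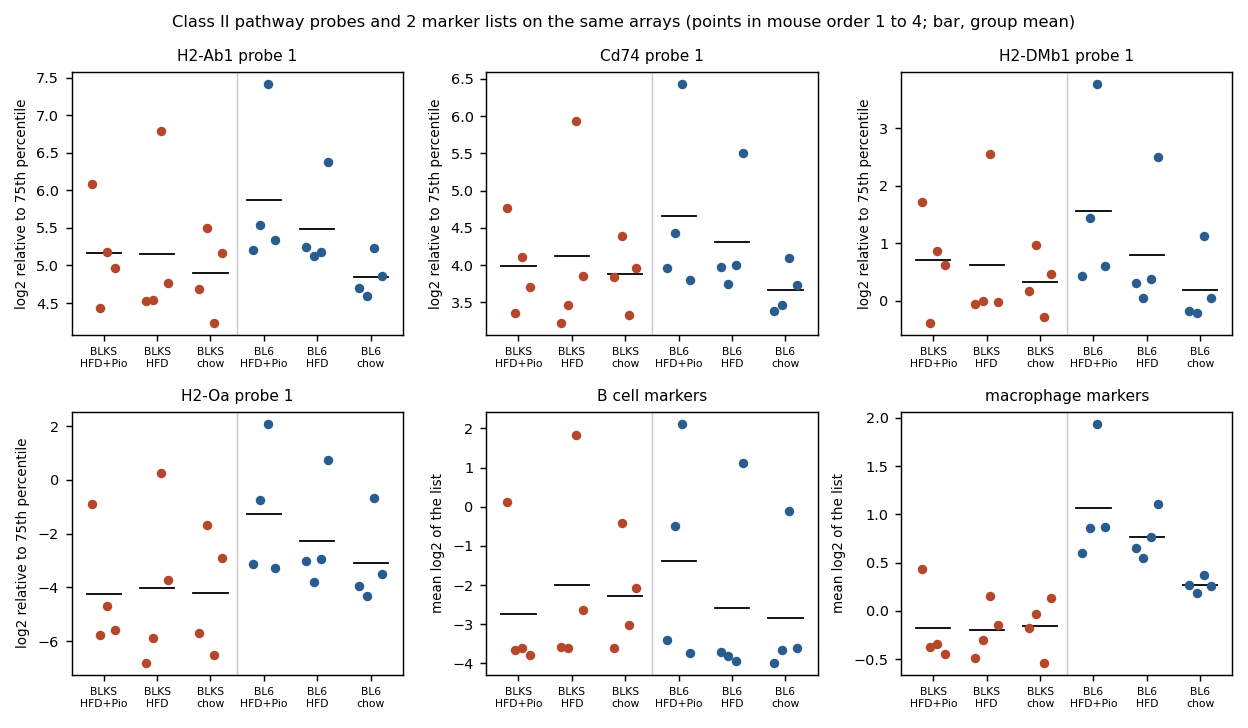
Log2 values of 4 class II pathway probes and the mean log2 of the B cell and macrophage marker lists (y axes) on the 24 arrays, by strain and diet (x axis), with mice in the order 1 to 4 and bars for the means of 4. The mouse that is highest for H2-Ab1 in a group is also high for the B cell list. The mean of the macrophage list is lower in BLKS than in BL6 on each diet.

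The class I transactivator Nlrc5 was measured by a pair of probes on chromosome 8 (chr8:97030478-97030624 and chr8:97051105-97051164, plus strand) that disagreed. Probe 2 was higher in BLKS, with -1.28, 0.19 and 1.12 (lowest, median, highest) against -3.59, -2.47 and 1.49 in BL6 (difference 2.04 ± 0.37, adjusted p = 7.19e-05). Probe 1 did not pass (0.07 ± 0.13, adjusted p = 0.677). Ciita, the class II transactivator, was detected in 2 BLKS and 6 BL6 mice and did not pass (-1.16 ± 0.52, adjusted p = 0.0536). It passed without BLKS mouse 1 on HFD with pioglitazone, BLKS mouse 3 on HFD, BL6 mouse 1 or 4 on HFD with pioglitazone, BL6 mouse 1 on HFD or BL6 mouse 2 on chow. The names H2-Ke2 and H2-Ke6 belong to genes of the region that encode no MHC molecule, a prefoldin subunit and a steroid dehydrogenase. H2-Ke2 differed by -0.28 ± 0.07 and H2-Ke6 by 0.18 ± 0.07, and both passed. The H2-Ke6 call was lost without BLKS mouse 2 on HFD with pioglitazone, BLKS mouse 2 or 4 on HFD, BLKS mouse 1 on chow, BL6 mouse 3 on HFD with pioglitazone or BL6 mouse 3 on HFD.

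The strains were also compared within each diet. On HFD with pioglitazone, 25 of 50 probes passed (45.9% of all probes), 15 higher and 10 lower in BLKS (23.2% and 22.7% of all). In that comparison the authors' deposited value table, scaled to array medians, gave 17 higher and 7 lower among these probes, and moved the share of higher calls over all probes to 61.6%, against 50.5% here. On HFD alone, 24 passed (50.2% of all probes), 17 higher and 7 lower (23.5% and 26.7% of all). On chow, 27 passed (41.6% of all probes), 20 higher and 7 lower (19.6% and 21.9% of all). Of these, 21 probes passed in all 3 diets (31% of all probes), 15 higher and 6 lower (15.6% and 15.4% of all). The lower ones were H2-Q1, H2-Aa, H2-K1 probe 1, H2-T10, H2-T9 and H2-M2 probe 2. H2-Ea-ps and H2-T18 probe 2, not detected in BL6, were at least 118-fold and 4.92-fold higher in BLKS on HFD with pioglitazone, 111-fold and 4.96-fold on HFD, and 80.0-fold and 2.83-fold on chow. The other higher ones included H2-Bl (1.09, 1.30 and 1.31 on HFD with pioglitazone, HFD and chow), H2-T23 (0.98, 0.96 and 1.27), H2-D1 (0.56, 0.66 and 0.74) and Tap2 (0.43, 0.66 and 0.53). H2-Aa differed by -2.41, -1.88 and -1.64, and its call on chow was lost without BLKS mouse 1 or 3 or BL6 mouse 3. The Tap2 call on HFD with pioglitazone was lost without BLKS mouse 1, 2 or 4 or BL6 mouse 1, 2 or 4, and that of H2-T9 without BLKS mouse 1 or 2 or BL6 mouse 3 or 4. The H2-M2 probe 2 call was lost on HFD with pioglitazone without BLKS mouse 2 or 4 or BL6 mouse 3, and on chow without any BLKS mouse or BL6 mouse 2 or 4.

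The comparison of strains on a shared slide set 3 BLKS mice on chow against 3 BL6 mice on HFD with pioglitazone, so diet differed along with strain. Of the 50 probes, 6 passed there (22.8% of all probes): H2-Ea-ps (6.67), H2-T23 (0.91), H2-K1 probe 1 (-1.36), H2-M9 probe 2 (-2.54), H2-Aa (-2.71) and H2-Q1 (-7.16). H2-Ea-ps and H2-Q1 were at background in one of the strains, and H2-M9 probe 2 was detected in 0 of 4 BLKS mice on chow. The differences of these probes are no measured folds. With the single arrays of slide 4 added and slide as a block, 14 passed (33% of all probes). Several differences were much smaller in this pairing than in the mean over diets. Tap1 differed by 0.01 within the slide, Tap2 by 0.16, H2-D1 by 0.23, Nlrc5 probe 2 by 0.36, H2-Q8 by 0.12 and H2-Q7 by -0.04. Over all 8 mice of this pair of groups, on both slides and with no block, the same differences were 0.17 for Tap1, 0.22 for Tap2, 0.32 for H2-D1, 0.57 for Nlrc5 probe 2, 0.53 for H2-Q8 and 0.06 for H2-Q7, also below the mean over diets. Differences below 0 were larger in size within the slide for H2-Aa (-1.98 in the mean over diets) and H2-K1 probe 1 (-0.93). H2-T10 had -0.86 within the slide and -0.90 in the mean over diets. The 3 BL6 mice within the slide were mice 1 to 3, and mouse 3 had the highest T and B cell markers. Tap1 had -2.056, -1.035 and 0.871 in these mice, and H2-Q8 had -1.518, -0.695 and 2.739. Slide and diet were not separated by this, and the part of BL6 mouse 3 was not tested.

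The interval of chromosome 17 between the outermost H2-named probes (chr17:34076578-37618439) held 41 kept member probes, of which 28 passed between the strains (68.3%). The 175 other kept probes of the interval passed in 128 cases (73.1%), against 65.2% of all probes. Differences of over 2-fold were seen for 26.8% of the members, 21.1% of their neighbours and 16.2% of all probes. The neighbours thus differed between the strains about as often as the member probes among them, which include Tap1, Tap2, Psmb8, Psmb9, H2-Ke2 and H2-Ke6.

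No antigen presentation probe passed the test for HFD or for pioglitazone in either strain. For HFD against chow, 0 of 50 passed in BLKS (0.0397% of all probes, 13 probes) and 0 of 50 in BL6 (0.0366%, 12 probes) in limma. At an unadjusted p under 0.05 there were 1 in BLKS (8.86% of all probes) and 5 in BL6 (5.96%). These counts were unstable, running from 1 to 4 in BLKS and from 1 to 8 in BL6 with 1 mouse left out, and they were 6 and 14 when only the groups compared entered the fit. The mice that moved them by over 1.5 times were BLKS mouse 3 on HFD and mice 1 and 3 on chow, and all BL6 mice of both groups except mouse 3 on HFD. The smallest adjusted p among the 50 were 0.271 in BLKS and 0.566 in BL6. Under the other settings tried, 0 passed as well. The differences nevertheless leaned one way, with 43 of 50 above 0 in BLKS (46.1% of all probes) and 45 of 50 in BL6 (45.5%), and medians of 0.23 and 0.28 against -0.02 over all probes in each strain. Since these probes vary together from mouse to mouse, they are not separate observations, and no test was made of the lean. Without the 8 arrays of high T and B cell markers the counts above 0 were 37 and 39, with medians of 0.14 and 0.19. With the mean of the T and B cell list as a covariate they were 43 and 38, with medians of 0.21 and 0.22. Without BLKS mouse 3 on HFD alone, 30 were above 0 in BLKS with a median of 0.07, and without BL6 mouse 4 on HFD alone, 36 in BL6 with a median of 0.17.

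In BL6, B2m had 4.82, 4.39, 4.58 and 5.32 on HFD against 3.93, 3.88, 4.25 and 4.02 on chow. All 4 HFD mice lay above all 4 chow mice (difference 0.76 ± 0.33, unadjusted p = 0.0340, adjusted p = 0.772). H2-T23 had 5.41, 5.52, 5.42 and 5.57 on HFD against 5.08, 5.17, 5.16 and 5.31 on chow in BL6, again without overlap (0.30 ± 0.10, adjusted p = 0.566). In BLKS, H2-K1 probe 1 had 5.77, 5.64, 5.87 and 5.50 on HFD against 5.24, 5.47, 5.18 and 5.31 on chow. These groups did not overlap either (0.40 ± 0.12, unadjusted p = 0.00398, adjusted p = 0.271). Groups did not overlap for 8 of 50 probes in BLKS (5.59% of all probes) and for 9 of 50 in BL6 (4.84%). In BLKS these were H2-K1 probe 1, H2-K2 probe 1, H2-D1, H2-M2 probe 2, H2-Q10 probe 1, H2-T24, Psmb8 and Nlrc5 probe 2. In BL6 they were B2m, H2-K2 probe 2, H2-D1, H2-K1 probe 1, H2-M2 probe 2, H2-Q2 probe 2, H2-Q6, H2-Q7 and H2-T23. The BL6 comparison lies within 1 slide, and the BLKS comparison is between slides. Acinar markers, 9 of 9 measured, were above 0 in both diet differences, by 2.11 to 3.93 in BLKS and 1.54 to 2.58 in BL6. None of them passed. With their score as a covariate, 44 of 50 probes in BLKS and 45 of 50 in BL6 were above 0, with medians of 0.17 and 0.25. In limma, 2 in BLKS and 1 in BL6 then had an unadjusted p under 0.05. The part of acinar cells was not tested further.

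**Figure D5:**
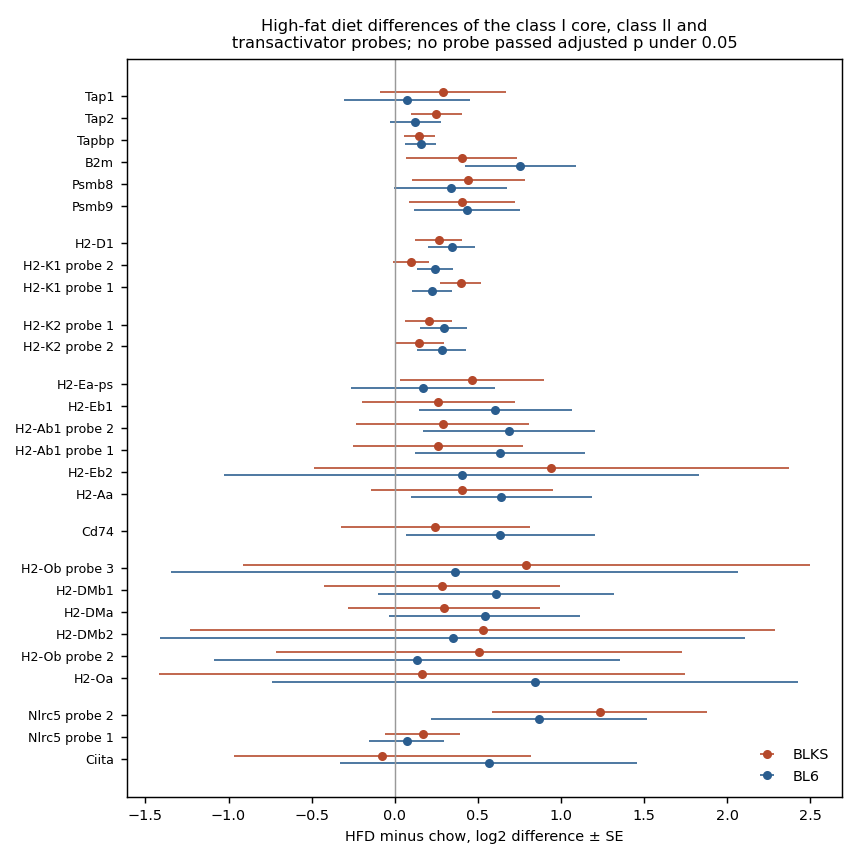
HFD minus chow log2 difference with its SE (x axis) in BLKS and BL6 for the class I core, class II and transactivator probes (y axis). Most points lie above 0 in both strains and most SE bars of the class II probes cross 0; no probe passed an adjusted p of 0.05.

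With pioglitazone added to the HFD, 0 of 50 probes passed in BLKS (0.00305% of all probes, 1 probe) and 0 of 50 in BL6 (0.116%, 38 probes) in limma, and 0 in either strain had an unadjusted p under 0.05, against 4.08% of all probes in BLKS and 10.1% in BL6. The groups overlapped for all 50 probes in both strains, against 2.93% and 3.27% of all probes without overlap. The median difference was -0.01 in BLKS and 0.14 in BL6, with 22 and 41 of 50 above 0 (50.4% and 47.3% of all probes). Without the 8 arrays of high T and B cell markers, 36 in BLKS and 25 in BL6 were above 0, with medians of 0.05 and -0.01, so the lean in BL6 was not seen there. It also rested on BL6 mouse 3 on HFD with pioglitazone, without which 15 of 50 were above 0 with a median of -0.12. Without BL6 mouse 1 on HFD with pioglitazone, 44 were above 0 with a median of 0.26. In BLKS the count ran from 13 to 38 with 1 mouse left out. H2-Aa in BL6 had 2.18, 2.62, 4.77 and 2.56 on HFD with pioglitazone against 2.24, 2.23, 2.34 and 3.64 on HFD. Only mouse 3 with pioglitazone and mouse 4 without it stood out, both on arrays of high T and B cell markers (difference 0.42 ± 0.55, adjusted p = 0.83). The largest difference in BL6 was that of H2-Ob probe 3 at 2.13 ± 1.71, and the smallest adjusted p there was 0.572. These comparisons share their HFD mice with those of HFD against chow. The tests of a strain difference in the response to HFD and to pioglitazone called 0 of 50 probes and 0 of all probes, and 1 and 0 of the 50 had an unadjusted p under 0.05 (8.23% and 7.42% of all probes).

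Of 29 further genes of the pathway, 28 were measured, and 9 were higher and 6 lower in BLKS, a smaller share than the 65.2% of all probes that passed. The 4 with the smallest p were all higher. They were Jak2, a kinase of the interferon gamma receptor (0.84 ± 0.04, adjusted p = 1.23e-13), Rfx5, a subunit of the factor that binds class II promoters (0.86 ± 0.06), Irf1, an interferon-induced transcription factor (1.04 ± 0.09), and Tapbpl, a relative of tapasin that edits class I peptides (0.52 ± 0.07). On chow, Erap1, which trims class I peptides, was lower in BLKS by 0.52 ± 0.12. None of the 28 passed for HFD or pioglitazone in either strain.

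The promoters of class II genes carry shared elements, the X box bound by RFX and the Y box bound by NF-Y, through which CIITA acts. Among 37 RefSeq windows of 34 member genes (GRCm38.p6, 250 bases before to 50 after the start), 24 held TGATTGG, the core of the Y box, on either strand (64.9%), against 7.82% of 32851 windows. TAGCAAC, from the X box, was found in 8.11% of member windows and 3.66% of all. TTCNNNGAA, the element bound by STAT factors after interferon, was found in 10.8% of member windows and 8.3% of all. Of the class II genes with a window, TGATTGG was found in H2-Aa, H2-Eb1, H2-Eb2, H2-DMb1, H2-DMb2, H2-Oa and H2-Ob, and not in H2-DMa. Most windows with it were of class I genes, among them H2-M1 and H2-M10.1, whose probes were well above background on no array. Windows of related genes are not separate observations, and the shares were not tested. No overlap between motifs was removed. The 250 bases before the start are shown for H2-Aa (chr17:34287824-34288073, minus strand), which was lower in BLKS, and for H2-Eb1 (chr17:34305617-34305866, plus strand), which did not pass. Capitals mark TGATTGG, 50 bases before the start in H2-Aa and 61 in H2-Eb1, and TAGCAAC, 93 bases before the start in H2-Eb1. The reference genome is that of C57BL/6J, and BLKS sequence was not used here.
H2-Aa promoter: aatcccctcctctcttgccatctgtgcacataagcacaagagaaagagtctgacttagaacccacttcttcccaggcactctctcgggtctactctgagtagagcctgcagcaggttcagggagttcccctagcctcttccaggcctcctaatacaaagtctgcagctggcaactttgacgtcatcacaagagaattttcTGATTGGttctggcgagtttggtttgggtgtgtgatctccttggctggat
H2-Eb1 promoter: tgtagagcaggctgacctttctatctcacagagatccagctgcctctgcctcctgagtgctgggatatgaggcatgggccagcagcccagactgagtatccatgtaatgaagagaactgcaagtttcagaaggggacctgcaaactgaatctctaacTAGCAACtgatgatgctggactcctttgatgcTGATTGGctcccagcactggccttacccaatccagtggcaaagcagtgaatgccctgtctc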

How the data were processed

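Each islet RNA sample was hybridised to 1 single-colour Agilent array. The deposited scanner files hold processed intensity per spot, background-corrected by Agilent Feature Extraction 10.7.3.1, per the file headers. The authors' deposited value table holds a linear ratio, which matched the processed intensity divided by the array median. Values on the log2 scale were computed here from the deposited intensities, as log2 of the processed intensity minus the array's 75th percentile. Control spots and outlier flags were left out, no spot was saturated, and spots of 1 probe were averaged. Between 27400 and 32477 probes per array were well above background, and 32770 probes were kept that were so on at least 4 arrays.

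A model with the 6 groups was fitted to all kept probes with limma 3.58.1 (lmFit, eBayes) in R 4.3.3, with Benjamini-Hochberg adjustment over all of them and a threshold of 0.05. Errors beside differences are SE from this model. The mean strain comparison rests on 12 mice a strain and every other comparison on 4 a group. The code was tested on simulated data. Where no array of a group was well above background, an "at least" fold sets the brighter group's mean against, per array, the higher of the lowest well-measured signal and the probe's own. The text could name the 8 highest and 8 lowest called member probes per comparison and 4 partner genes, and it describes other members by role. Names are those of the array, and 54 of 66 probes matched a RefSeq symbol by accession. The members and lists were chosen with earlier results of these data known. Alternatives covered background correction, normalization, the filter, slide, mouse number, marker scores and each array left out.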

Additional observations from a re-analysis of the deposited data

Results flagged for a closer look

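Over 300 groups of 4 mice (50 probes in 6 groups), 36 had a highest or lowest mouse that stood apart from the other 3 by Dixon's test. Chance gives this in about 1 in 20 groups, and probes of one array are not independent. All values are log2 relative to the array's 75th percentile.

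Most of them fell on 3 mice whose arrays had high T and B cell markers. BLKS mouse 3 on HFD was highest for B2m (5.38), both H2-Ab1 probes (6.79 and 6.88), H2-Eb1 (6.93), H2-Eb2 (-2.97), H2-DMb1 (2.56), H2-Ob probe 3 (0.98) and H2-M2 probe 1 (-0.90). BL6 mouse 3 on HFD with pioglitazone was highest for B2m (6.34), H2-Aa (4.77), both H2-Ab1 probes (7.42 each), H2-Eb1 (7.41), H2-K1 probe 1 (7.10) and H2-Q7 (5.96). BL6 mouse 4 on HFD was highest for H2-Aa (3.64), both H2-Ab1 probes (6.37 and 6.35), H2-Eb2 (-1.34), Cd74 (5.50), H2-DMb1 (2.49), H2-DMb2 (-1.14), H2-Ob probe 2 (0.42) and Nlrc5 probe 2 (-0.25). BL6 mouse 3 on chow, for H2-Eb2 (-2.61) and H2-Ob probe 2 (-0.90), and BLKS mouse 1 on HFD with pioglitazone, for H2-DMb2 (-1.97), were also on such arrays.

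The others were spread over the groups. In BLKS, mouse 3 on HFD with pioglitazone was highest for H2-K2 probe 1 (6.50) and lowest for H2-Ke2 (1.69), and mouse 4 on HFD was lowest for H2-Ke2 (2.22). On chow, BLKS mouse 3 was highest for Tapbp (3.91) and H2-T18 probe 2 (-3.58), and mouse 1 was lowest for H2-M2 probe 2 (3.11). In BL6, mouse 1 on HFD with pioglitazone was highest for H2-Ea-ps (-5.94), where no BL6 array was well above background. On chow, BL6 mouse 4 was highest for H2-Q2 probe 1 (2.93) and mouse 1 lowest for H2-T9 (0.24).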

How the results depend on the processing

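The count of 32 probes that passed between the strains fell outside 1.5 times its value under 2 settings, both with fewer arrays. It was 6 within 1 slide and 14 over slides 2 and 4 with slide as a fixed block, a setting chosen after the data were seen. Both set BLKS on chow against BL6 on HFD with pioglitazone. Within 1 slide the sign was turned for 2 probes that passed in the mean over diets, H2-Q10 probe 2 (-0.137) and H2-Q7 (-0.041), neither of which passed there, and for B2m, Psmb8, Psmb9, Tapbp and H2-Q4, which passed in neither. The cause was not tested. Under the other settings that kept all mice the count over the 50 probes lay between 30 and 38. Among probes detected in every mouse, 27 of 37 members passed (68.8% of all such probes). Leaving out 1 array gave 30 to 36 for the mean over diets, 21 to 28 on HFD with pioglitazone, 22 to 25 on HFD and 23 to 25 on chow, and 0 for every diet and pioglitazone comparison.

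Mouse numbers do not pair the samples. Deviations of same-numbered mice correlated with a median r of 0.04 (-0.59 to 0.70), against 0.03 for other pairs. With mouse number as a replicate block, 33, 27, 23 and 26 probes passed for the mean over diets, HFD with pioglitazone, HFD and chow (65.9%, 47.0%, 51.0% and 42.7% of all probes), and 0 passed for HFD or pioglitazone in either strain or for their strain differences.

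H2-Eb2, H2-DMb2 and Ciita were well above background on 5, 7 and 8 of the 24 arrays. H2-Oa, H2-Ob, H2-M2 probe 1, H2-M9 probe 2, H2-Q10 probe 2, H2-T18 probe 2, H2-Ea-ps, H2-Q1 and Nlrc5 probe 1 were so on fewer than all of them. Part of the values of all these probes is background signal.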
